A study of Mus musculus with 8 samples.

Results

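RNA of 10 genes of bile acid synthesis and transport was followed in 8 mouse livers. The genes were chosen by symbol for their role. The rule used no levels, but it was set with earlier results of these data known. They were Cyp7a1, Cyp8b1, Cyp27a1, Cyp7b1, Baat, Slc10a1, Abcb11, Abcc2, Nr1h4 and Nr0b2, and all 10 were found among the 49585 genes of the count file. All 10 passed the filter on low counts that left 16496 genes for testing.

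The livers came from male mice kept on a high-fat, choline-deficient diet (HFCD) for 3 months from day 21 of age, a diet that loads the liver with fat. The 3 LP245/+ mice carried Alb-Cre and 1 conditional Trp53wm-R245W allele, which expresses wild-type p53 until Cre switches it to the R245W mutant. The 2 LPfl/+ mice carried Alb-Cre and 1 Trp53fl allele, which Cre deletes. Each kept 1 unmodified Trp53 allele. The 3 LP+/+ controls are labelled Alb-Cre0, with Trp53fl/+ in replicates 1 and 2 and Trp53wm-R245W/+ in replicate 3. By these labels they lacked Cre, kept the conditional allele unrecombined and were not of a single genotype. The study's text instead describes its LP+/+ cohort as Alb-Cre carriers with unaltered p53. The labels were followed here, and by them Cre and the p53 change cannot be told apart in comparisons with LP+/+. Alb-Cre acts in hepatocytes and bile duct cells, so other liver cells kept their wild-type alleles. In whole liver RNA, fewer cells of a type and less RNA per cell cannot be told apart. The labels number the libraries in 2 series. LP245/+ replicates 1 to 3 and LP+/+ replicates 2 and 3 belonged to the first, and LP+/+ replicate 1 and LPfl/+ replicates 1 and 2 to the second. The labels do not say what a series stands for, and no series held both LP245/+ and LPfl/+ livers, so in that comparison series and genotype cannot be told apart.

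Bile acids are made from cholesterol in hepatocytes. The classical route starts with Cyp7a1, and Cyp8b1 decides how much of its product becomes cholic acid. The alternative route starts with Cyp27a1 and goes on through Cyp7b1. Baat joins bile acids to taurine or glycine, Slc10a1 (NTCP) takes them up from blood, and Abcb11 (BSEP) and Abcc2 (MRP2) export into bile. The nuclear receptor FXR, encoded by Nr1h4, senses bile acids, raises Abcb11 and Nr0b2 (SHP), and through SHP lowers Cyp7a1 and Cyp8b1. Disturbed bile acid handling is a known feature of fatty liver disease.

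No gene of the 10 differed between genotypes past the cutoff, which asked for a 2-fold change (1 or more in size on the log2 scale) and an adjusted p of 0.05 or less (edgeR quasi-likelihood test, two-sided, adjusted over all 16496 genes). This held in the 3 comparisons, LP245/+ with LP+/+, LPfl/+ with LP+/+ and LP245/+ with LPfl/+. Of all genes, 0.00606% passed the cutoff in the first comparison, which is Cdkn1a alone, and 0% in each of the other two. DESeq2 likewise placed 0 of the 10 past this cutoff in each comparison, and 0.0514%, 0.0603% and 0.362% of the genes it tested in the 3 comparisons. At an unadjusted p below 0.05, edgeR gave 1 of the 10 in LP245/+ against LP+/+, which was Cyp8b1 with lower values, while 5.93% of all genes had such a p and 2.38% had one with lower values. It gave 0 of the 10 in LPfl/+ against LP+/+ and 0 in LP245/+ against LPfl/+, where 6.89% and 8.51% of all genes did. A test for any difference among the 3 genotypes gave 0 of the 10 and 0% of all genes at an adjusted p of at most 0.05, and at an unadjusted p below 0.05 again Cyp8b1 alone, against 7.79% of all genes. DESeq2 gave 1 of the 10 in that test, also Cyp8b1, as described with that gene.

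The 10 genes differed widely in how steady they were from liver to liver. Levels are given below as CPM, counts scaled to a common library size after TMM normalization for library composition. From the lowest to the highest of the 8 livers, Cyp7a1 spanned 4.87-fold, Cyp7b1 3.71-fold, Nr0b2 3.63-fold and Cyp8b1 2.90-fold. The other 6 genes, Cyp27a1, Baat, Slc10a1, Abcb11, Abcc2 and Nr1h4, spanned 1.28- to 1.47-fold. Their coefficients of variation were 8.92% to 13.2%, close to the median of 10.2% over the 7627 tested genes with a mean of at least 10 CPM. Within genotypes, the SD of log2 CPM of Cyp7a1 lay at the 99.3 percentile of those genes, that of Cyp7b1 at 98.9, that of Nr0b2 at 98.6 and that of Cyp8b1 at 93.2. The other 6 lay from 47.8 for Slc10a1 to 77.4 for Nr1h4, with Cyp27a1 at 72.5. The most variable transcripts of the list were therefore 3 of the 4 synthesis enzymes and SHP. The transporters, FXR, Baat and Cyp27a1 varied less, though FXR and Cyp27a1 varied more within genotypes than most of those genes.

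**Figure D1:**
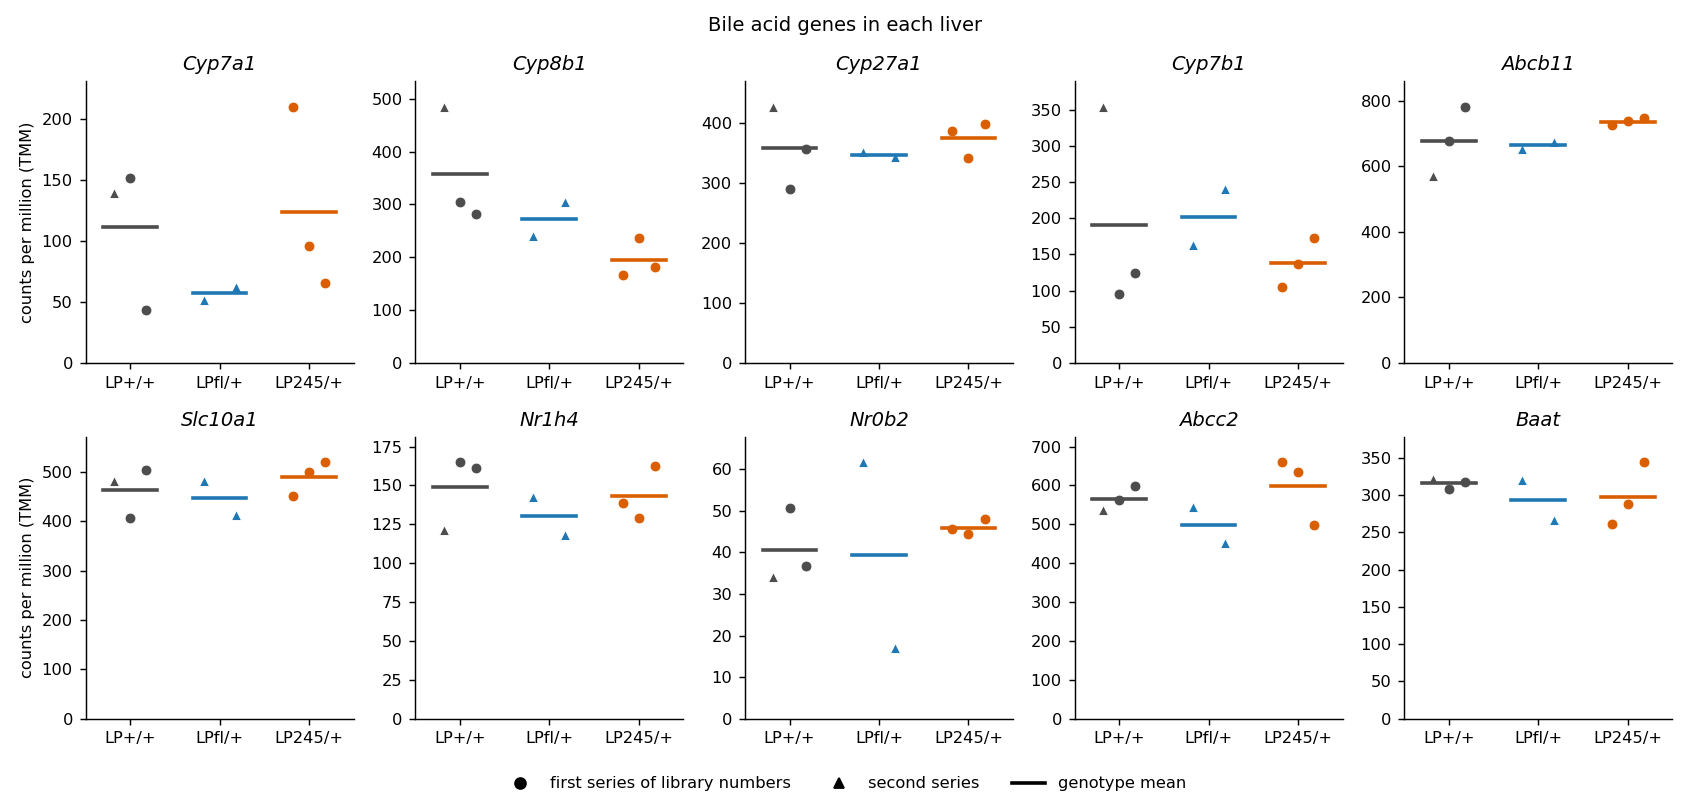
TMM-scaled CPM of the 10 bile acid genes (vertical axes from 0) in 3 LP+/+, 2 LPfl/+ and 3 LP245/+ livers. Each point is 1 liver, circles and triangles mark the 2 series of library numbers, and lines are genotype means. Cyp8b1 lies lowest in LP245/+, Cyp7a1, Cyp7b1 and Nr0b2 scatter widely within genotypes, and the other panels are nearly level.

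Counting was not the limit for these genes. Libraries held 26304526 to 31370714 counts, and the lowest count of any of the 10 genes in any liver was 476, for Nr0b2 in LPfl/+ replicate 2. To compare genes with each other, TPM values were computed, which divide by transcript length before scaling. By mean TPM over the 8 livers the order was Slc10a1 at 491, Cyp27a1 at 383, Baat at 360, Cyp8b1 at 328, Abcb11 at 311, Cyp7b1 at 186, Abcc2 at 151, Nr1h4 at 142, Nr0b2 at 85.6 and Cyp7a1 at 57.1. The ranges of every pair of neighbours in this order overlapped. Slc10a1 was above Cyp27a1 in 8 of 8 livers and Nr1h4 above Nr0b2 in 8 of 8, but Cyp8b1 was above Abcb11 in only 3 of 8 and Cyp7b1 above Abcc2 in 4 of 8. By mean TPM the uptake transporter NTCP was thus the most abundant transcript per length and the enzyme that opens the classical route the least. Neither place held in every liver. Cyp8b1 was above Slc10a1 in LP+/+ replicate 1, at 599 against 528 TPM, and Nr0b2 was above Cyp7a1 in only 5 of 8 livers.

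Promoters of 7 of the 10 genes were found in the RefSeq set for GRCm38.p6, as 300-base windows from 250 bases before to 50 bases after a transcript start. Cyp7a1, Cyp7b1 and Baat were not among them. Those of Cyp8b1, the gene with the largest LP245/+ against LP+/+ difference, and of Abcb11, the canalicular pump that FXR is known to switch on, are printed 5′ to 3′ along the transcribed (minus) strand. The Cyp8b1 window is chr9:121916256-121916555 and the Abcb11 window chr2:69342567-69342866. Capitals, present in the Abcb11 window only, mark matches to an inverted repeat of AGGTCA and TGACCT with 1 free base between them (IR-1, the arrangement bound by FXR), read on both strands with up to 2 mismatches allowed.
Cyp8b1: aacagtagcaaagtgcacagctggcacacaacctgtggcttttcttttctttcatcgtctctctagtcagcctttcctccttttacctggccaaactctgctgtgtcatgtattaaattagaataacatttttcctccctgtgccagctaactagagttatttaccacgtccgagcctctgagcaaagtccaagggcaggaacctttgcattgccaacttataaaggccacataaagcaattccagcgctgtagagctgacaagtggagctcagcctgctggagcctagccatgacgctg
Abcb11: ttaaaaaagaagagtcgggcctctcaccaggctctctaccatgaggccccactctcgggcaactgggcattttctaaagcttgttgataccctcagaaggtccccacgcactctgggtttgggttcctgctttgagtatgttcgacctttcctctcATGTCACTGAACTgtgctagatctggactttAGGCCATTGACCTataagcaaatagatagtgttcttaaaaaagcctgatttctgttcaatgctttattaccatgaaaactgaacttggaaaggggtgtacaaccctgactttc
The Abcb11 window held 2 such matches, from 94 to 82 and from 63 to 51 bases before the start, and the second overlapped an exact TGACCT. Such matches occurred in 1.14% of the 32851 promoters, and exact ones in 0.00913%. The other 6 genes had no match of this kind. The letters TCAAGGTCA and TCAAGGCCA, forms of the site of LRH-1 (Nr5a2), were searched without mismatches. They were in none of the 7 genes' windows and in 0.423% and 0.591% of all promoters. The single hexamer AGGTCA, found in 16.3% of all promoters on either strand, was also present in windows of Nr1h4, Slc10a1 and Abcc2. The p53 half-site consensus was found in 8.36% of all promoters, and among these genes in windows of Slc10a1 and Abcc2. A match describes letters only, and the lack of one does not exclude looser forms or sites outside the window.

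Cyp7a1, the rate-limiting enzyme of the classical route (chr4:6265612-6275633, minus strand, GRCm38), had 139 CPM in LP+/+ replicate 1, 152 in replicate 2 and 43.2 in replicate 3. It had 51.7 and 62.8 CPM in LPfl/+ replicates 1 and 2, and 211, 96.5 and 65.7 in LP245/+ replicates 1, 2 and 3. LP245/+ replicate 1 was the highest liver and LP+/+ replicate 3 the lowest. Both LPfl/+ livers lay below all 3 LP245/+ livers but inside the LP+/+ range. The log2 fold change was 0.16 (SE 0.48, 95% interval -0.92 to 1.23) in LP245/+ against LP+/+ and -0.96 (SE 0.56, interval -2.20 to 0.28) in LPfl/+ against LP+/+. Between LP245/+ and LPfl/+ it was 1.12 (SE 0.56, 95% interval -0.13 to 2.37, edgeR adjusted p = 0.624). Each of the 3 intervals holds 0 and reaches past a 2-fold change on 1 side. Over the alternative analyses the adjusted p of the LP245/+ against LPfl/+ difference ran from 0.214 to 0.991, and with 1 liver left out in turn its size ran from 0.51 to 1.42, the smallest value coming without LP245/+ replicate 1.

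Cyp8b1, the sterol 12-alpha-hydroxylase that directs synthesis to cholic acid (chr9:121914356-121916305, minus strand), had 485, 305 and 282 CPM in LP+/+ replicates 1, 2 and 3. It had 241 and 304 CPM in LPfl/+ replicates 1 and 2, and 167, 236 and 182 in LP245/+ replicates 1, 2 and 3. All 3 LP245/+ livers lay below every LP+/+ and LPfl/+ liver, while LPfl/+ and LP+/+ overlapped. Cyp8b1 was the 1 gene of the 10 in which LP245/+ and LP+/+ did not overlap, and 5.08% of all genes tested were lower in that way. The mean was 357 ± 111 CPM (SD, n = 3) in LP+/+, 273 ± 44.5 (n = 2) in LPfl/+ and 195 ± 36.0 (n = 3) in LP245/+. LP245/+ against LP+/+ gave a log2 fold change of -0.88 (SE 0.22, 95% interval -1.37 to -0.39), a difference of -45.5% with an unadjusted p = 0.00269 and an adjusted p = 0.795 by edgeR. LPfl/+ against LP+/+ gave -0.39 (SE 0.25, adjusted p = 0.782) and LP245/+ against LPfl/+ gave -0.48 (SE 0.24, adjusted p = 0.621).

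The adjusted p of Cyp8b1 depended on the tool. DESeq2 gave -0.89 (SE 0.20) with an adjusted p = 0.0274 for LP245/+ against LP+/+, where 0.0926% of the genes it tested had an adjusted p of at most 0.05. edgeR without the filter on low counts gave an adjusted p = 0.0307, where 0.0893% of genes passed. Over all alternatives the adjusted p ran from 0.0274 to 0.998. For a difference among any of the 3 genotypes, DESeq2 gave an adjusted p = 0.023 and unfiltered edgeR 0.0279, where 0.503% of genes passed with either. In LP245/+ against LP+/+ the fold change stayed below the cutoff of 1 in size with both. Its size rested in part on LP+/+ replicate 1, the liver with the most Cyp8b1 and the only control of the second series. Without it, which leaves the same livers as a comparison within the first series, the log2 fold change was -0.59, and all 3 LP245/+ livers lay below LP+/+ replicates 2 and 3. In the second series the log2 ratio of LPfl/+ to LP+/+ replicate 1 was -0.83. With the series as a covariate LP245/+ against LPfl/+ turned to 0.24, a value that rests on the LP+/+ livers because no series held both genotypes.

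**Figure D2:**
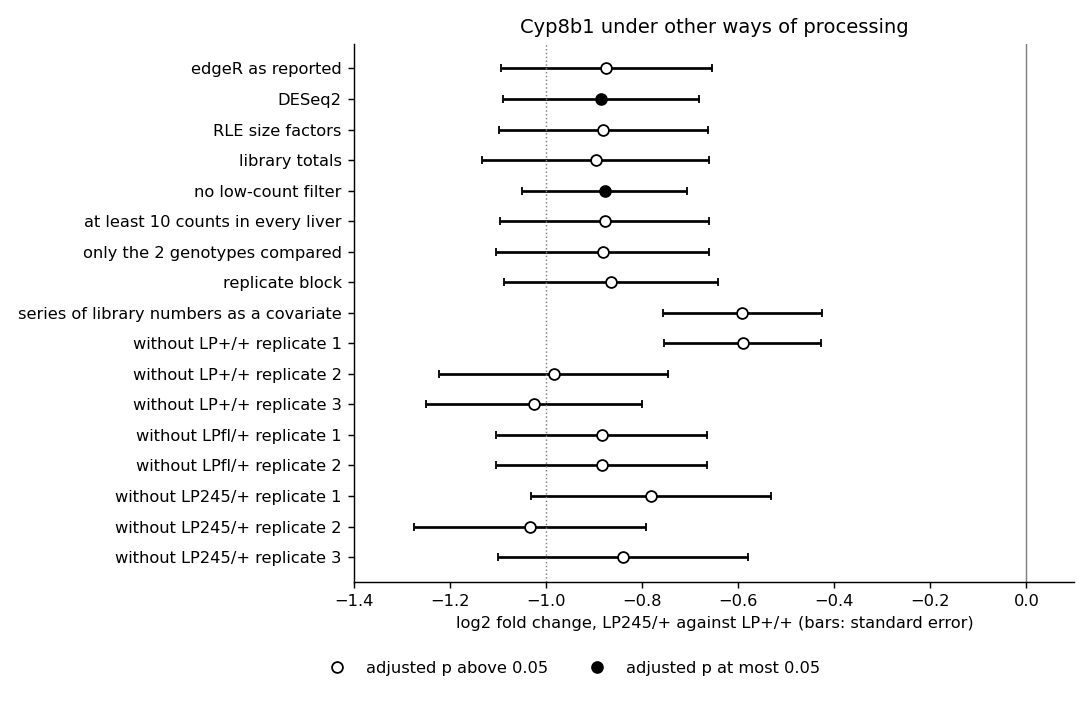
Log2 fold change of Cyp8b1 in LP245/+ against LP+/+ (horizontal axis, bars are standard errors) under the reported analysis and its alternatives. Filled points have an adjusted p of at most 0.05, the dotted line is the fold cutoff, and all values lie between -1.03 and -0.59.

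Some clock genes had their highest and lowest values in the same livers as Cyp8b1, and others did not. Cyp7a1 and Cyp8b1 transcripts are known to follow the time of day, and the labels give no hour of sampling. Arntl (BMAL1), a core clock activator, had 37.7, 18.9 and 23.2 CPM in LP+/+ replicates 1, 2 and 3, 26.8 and 29.4 in LPfl/+, and 8.37, 17.7 and 12.5 in LP245/+. Dbp, a clock output factor known to act on Cyp7a1, had 0.815, 7.75 and 3.57 CPM in the controls, 2.29 and 1.82 in LPfl/+, and 23.7, 9.48 and 18.6 in LP245/+. Cyp8b1 and Arntl were both highest in LP+/+ replicate 1 and lowest in LP245/+ replicate 1, whereas Dbp was lowest and highest in those livers. The repressor Nr1d1 was likewise lowest in LP+/+ replicate 1 at 5.20 CPM and highest in LP245/+ replicate 1 at 62.7. The order of the livers between differed for Cyp8b1 and Arntl. Arntl was higher in both LPfl/+ livers than in LP+/+ replicates 2 and 3, and Cyp8b1 was not. Other clock genes did not share both extremes with Cyp8b1. Per1, Per2, Hlf and Nfil3 were lowest in an LPfl/+ liver, at 4.39, 14.1, 24.8 and 20.5 CPM. Clock was highest in an LPfl/+ liver, at 132 CPM. In LP245/+ against LP+/+ the log2 fold changes were -1.05 (SE 0.29) for Arntl, 2.09 (SE 0.59) for Dbp, 1.17 (SE 0.50) for Nr1d1 and 0.54 (SE 0.14) for Per2. The list of 16 clock genes was also chosen with earlier results of these data known. Of the 16, all tested, 7 had higher and 3 lower values at an unadjusted p below 0.05 in LP245/+ against LP+/+. The counts were 0 higher and 1 lower in LPfl/+ against LP+/+, and 7 higher and 3 lower in LP245/+ against LPfl/+. Of all genes, 5.93%, 6.89% and 8.51% had such a p in the 3 comparisons. None of the 16 passed the cutoff by edgeR as reported. DESeq2 placed 0, 0 and 1 past it, the last being Arntl. edgeR without the filter on low counts placed 2 past it in LP245/+ against LP+/+ (Arntl and Dbp), 0 in LPfl/+ against LP+/+ and 5 in LP245/+ against LPfl/+ (Arntl, Dbp, Npas2, Nr1d1 and Per3), against 0.0661%, 0.0463% and 0.403% of all genes in that analysis. Arntl was higher in all 3 livers of the second series than in all 5 of the first, as were 5.08% of all genes, and Dbp, Nr1d1 and Per2 were lower, as were 4.54%. In Cyp8b1 the series overlapped. The median over the 16 was 0.57, -0.16 and 0.61 in the 3 comparisons, against 0.00 over all genes in each. The part of the clock state in the Cyp8b1 difference was not tested.

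**Figure D3:**
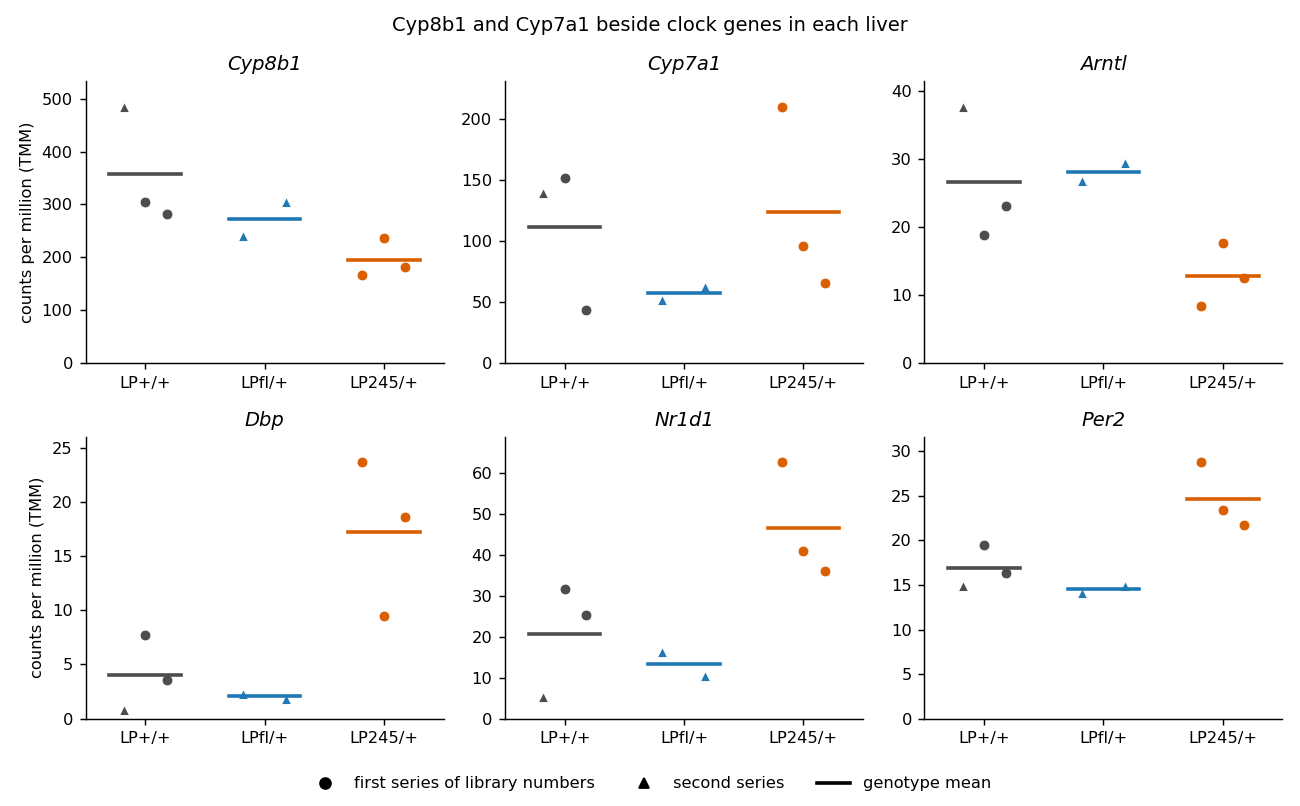
TMM-scaled CPM of Cyp8b1 and Cyp7a1 beside the clock genes Arntl, Dbp, Nr1d1 and Per2 in each liver (1 point per liver, lines are genotype means, circles and triangles mark the 2 series of library numbers). Cyp8b1 and Arntl are lowest in the 3 LP245/+ livers, where Dbp, Nr1d1 and Per2 are highest.

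Cyp27a1, the mitochondrial sterol 27-hydroxylase of the alternative route, ranged from 291 CPM in LP+/+ replicate 2 to 427 in LP+/+ replicate 1, with LPfl/+ and LP245/+ in between. Its log2 fold changes were 0.07 (SE 0.15) in LP245/+ against LP+/+, -0.05 (SE 0.16) in LPfl/+ against LP+/+ and 0.11 (SE 0.16) in LP245/+ against LPfl/+. Both extremes thus came from the control group.

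Cyp7b1, the oxysterol 7-alpha-hydroxylase, which also acts on sex steroids and is known to be higher in male mouse liver, had 354, 95.5 and 124 CPM in LP+/+ replicates 1, 2 and 3. It had 163 and 241 CPM in LPfl/+ replicates 1 and 2, and 106, 137 and 172 in LP245/+ replicates 1, 2 and 3. LP+/+ replicate 1 stood above all other livers, LP+/+ replicate 2 below all, and the 3 genotypes overlapped. The log2 fold change was -0.47 (SE 0.43) in LP245/+ against LP+/+, 0.08 (SE 0.48) in LPfl/+ against LP+/+ and -0.55 (SE 0.47) in LP245/+ against LPfl/+. Without LP+/+ replicate 1, which leaves only the first series in LP245/+ against LP+/+, the first of these was 0.34 and the second 0.88. Within the second series the LPfl/+ value was -0.81, so no direction for Cyp7b1 held across these choices. The log2 ratio of LP+/+ replicate 1 to the mean of replicates 2 and 3 was 1.69, against 0.51 for Cyp7a1, 0.72 for Cyp8b1 and 0.40 for Cyp27a1.

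Baat, the enzyme that conjugates bile acids, had 308 to 322 CPM in LP+/+, 267 and 320 in LPfl/+ and 261 to 344 in LP245/+. The LP245/+ livers held both the lowest and the highest value. The log2 fold changes were -0.08 (SE 0.13), -0.11 (SE 0.15) and 0.02 (SE 0.15) in LP245/+ against LP+/+, LPfl/+ against LP+/+ and LP245/+ against LPfl/+.

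Among the transporters, Slc10a1 was the steadiest of the 10 genes, at 407 to 503 CPM in LP+/+, 413 and 482 in LPfl/+ and 451 to 519 in LP245/+. Abcb11, the bile salt export pump, had 571, 676 and 782 CPM in LP+/+ replicates 1, 2 and 3, 654 and 674 in LPfl/+ replicates 1 and 2, and 725, 737 and 747 in LP245/+ replicates 1, 2 and 3. The LP245/+ livers lay close together and above both LPfl/+ livers, and inside the LP+/+ range. Abcb11 was also lower in all 3 livers of the second series than in all 5 of the first, the 1 gene of the 10 in which the series did not overlap, and 4.54% of all genes were lower in that way. The log2 fold change of Abcb11 was 0.12 (SE 0.13) in LP245/+ against LP+/+, -0.03 (SE 0.14) in LPfl/+ against LP+/+ and 0.15 (SE 0.14, 95% interval -0.17 to 0.47) in LP245/+ against LPfl/+. Abcc2, which exports conjugates such as bilirubin glucuronides, had 536 to 599 CPM in LP+/+, 453 and 545 in LPfl/+ and 499 to 660 in LP245/+, and its largest log2 difference was 0.26 (SE 0.15) in LP245/+ against LPfl/+. All genotype ranges of Slc10a1 and Abcc2 overlapped.

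LP245/+ did not overlap LPfl/+ in 3 of the 10 genes, higher in Cyp7a1 and Abcb11 and lower in Cyp8b1. Of all genes tested, 12.1% were higher and 13.3% lower in that way. LPfl/+ did not overlap LP+/+ in 0 of the 10, against 24.9% of all genes in either direction. For Cyp27a1, Baat, Slc10a1, Abcb11, Abcc2 and Nr1h4 all 95% intervals of the log2 fold changes in the 3 comparisons lay between -0.57 and 0.61, so a 2-fold change lay outside them. For Cyp7a1, Cyp7b1, Cyp8b1 and Nr0b2 at least 1 interval reached -1 or 1.

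**Figure D4:**
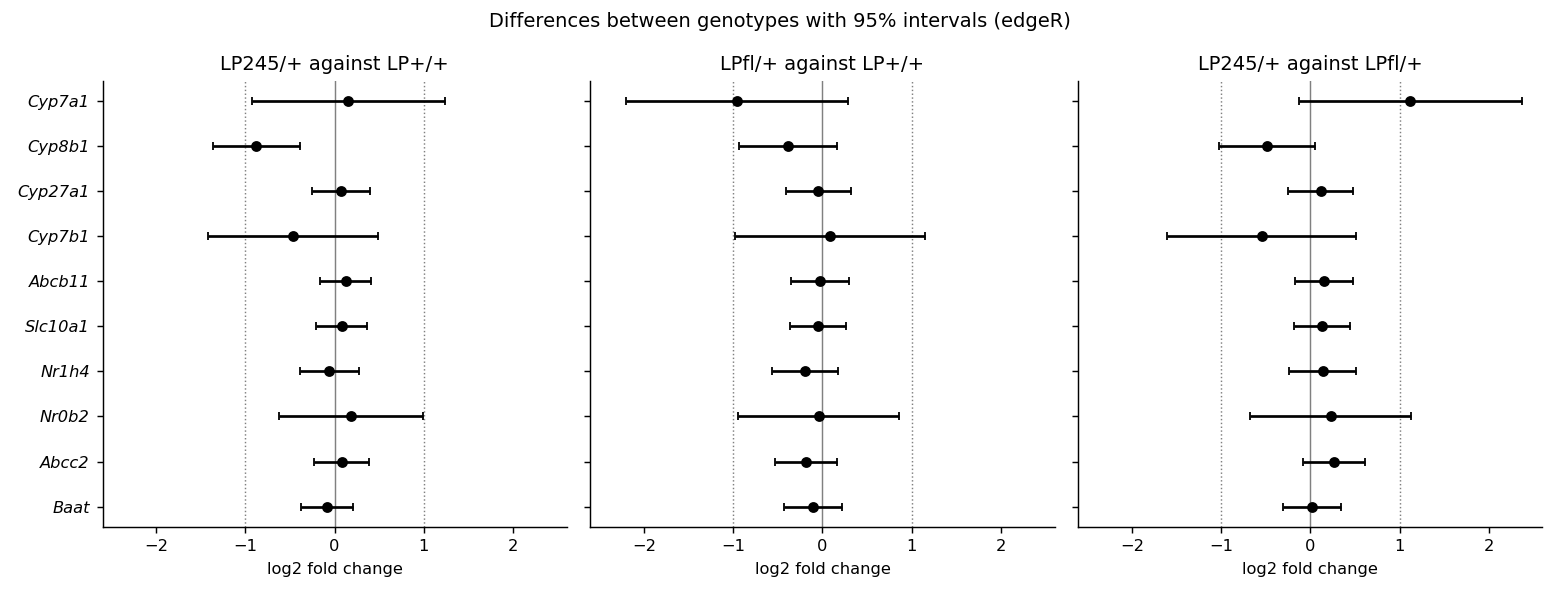
Log2 fold changes (points) with 95% intervals (bars) of the 10 genes by edgeR in the 3 comparisons of genotypes. Dotted lines mark the fold cutoff of 1. Cyp8b1 in LP245/+ against LP+/+ is the only interval that excludes 0, while those of Cyp7a1, Cyp7b1 and Nr0b2 are wide.

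Nr1h4, encoding FXR, had 122, 165 and 161 CPM in LP+/+ replicates 1, 2 and 3, 142 and 118 in LPfl/+ and 139, 129 and 163 in LP245/+. The genotypes overlapped, and log2 fold changes were -0.06 (SE 0.15) in LP245/+ against LP+/+, -0.20 (SE 0.17) in LPfl/+ against LP+/+ and 0.14 (SE 0.17) in LP245/+ against LPfl/+. Nr0b2, encoding the FXR-induced repressor SHP, had 34.0, 50.8 and 36.7 CPM in LP+/+ replicates 1, 2 and 3, 61.7 and 17.0 in LPfl/+ replicates 1 and 2, and 45.7, 44.3 and 48.0 in LP245/+ replicates 1, 2 and 3. Both extremes came from the 2 LPfl/+ livers, whereas the 3 LP245/+ livers were nearly equal. The log2 fold change of Nr0b2 was 0.18 (SE 0.36) in LP245/+ against LP+/+, -0.04 (SE 0.40) in LPfl/+ against LP+/+ and 0.23 (SE 0.40) in LP245/+ against LPfl/+. Leaving out LPfl/+ replicate 2 turned the LPfl/+ value to 0.59.

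Whether the receptor, its repressor and the enzymes moved together from liver to liver was asked for 5 pairs of genes over the 8 livers, on log2 CPM with exact two-sided permutation tests. No pair passed after adjustment over the 5 pairs. Nr1h4 with Nr0b2 gave Pearson's r = 0.60 (p = 0.0963, adjusted p = 0.405) and Spearman's rho = 0.74 (p = 0.0458, adjusted p = 0.229), and r was 0.23 without the 2 livers farthest from the median of Nr1h4. Nr1h4 with Abcb11 gave r = 0.54 (p = 0.162, adjusted p = 0.405) and rho = 0.48 (p = 0.243, adjusted p = 0.608) over 8 livers in the permutation test, and r = 0.72 without the 2 farthest. Nr0b2 with Cyp8b1 gave r = -0.40 (permutation p = 0.309, adjusted p = 0.515) and rho = -0.36 (p = 0.389, adjusted p = 0.649). Without the 2 livers farthest from the median of Nr0b2, r was -0.66. Nr0b2 with Cyp7a1 gave r = 0.16 (permutation p = 0.751, adjusted p = 0.939) and rho = 0.12 (p = 0.793, adjusted p = 0.882), with r = 0.27 without the same 2 livers. Cyp7a1 with Cyp8b1 gave r = 0.01 (permutation p = 0.983, adjusted p = 0.983) and rho = -0.07 (p = 0.882, adjusted p = 0.882). Without the 2 livers farthest from the median of Cyp7a1, r was 0.54. The series hold 5 and 3 livers, too few for a correlation within each. On deviations from the means of the 2 series, permuted within series, r was 0.48 for Nr1h4 with Nr0b2, 0.05 for Nr1h4 with Abcb11, -0.23 for Nr0b2 with Cyp8b1, 0.08 for Nr0b2 with Cyp7a1 and 0.16 for Cyp7a1 with Cyp8b1, and none passed (adjusted p = 0.881 for each r in the exact test).

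The wider pathway was read from 59 further genes of bile acid synthesis, conjugation, transport, regulation and detoxification, of which 51 passed the filter on low counts. None of the 51 passed the cutoff in any comparison by edgeR, and 0 of the 59 did by DESeq2 and 0 of 57 by edgeR without the filter. At an unadjusted p below 0.05 there was 1 higher and 1 lower gene in LP245/+ against LP+/+, 0 higher and 2 lower in LPfl/+ against LP+/+, and 4 higher and 1 lower in LP245/+ against LPfl/+. The 51 genes thus gave 2, 2 and 5 such values, and 5.93%, 6.89% and 8.51% of all genes did. The median log2 fold change of the 51 was -0.03, -0.08 and 0.07, against 0.00 over all genes in each comparison.

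By role, 0 of 7 further synthesis enzymes, 0 of 8 genes of side chain shortening and conjugation and 0 of 4 tested genes of sinusoidal efflux had such a p in LP245/+ against LP+/+. Sult2a8, a hepatic sulfotransferase that acts on bile acids, had 738 to 852 CPM in LP+/+, 964 and 1038 in LPfl/+ and 834 to 1349 in LP245/+, a log2 fold change of 0.39 (SE 0.17) in LP245/+ against LP+/+ with overlap. Ephx1, microsomal epoxide hydrolase, which has been linked to bile acid uptake, had 226, 445 and 408 CPM in LP+/+ replicates 1, 2 and 3, 239 and 221 in LPfl/+ and 185, 298 and 214 in LP245/+. LP+/+ replicate 1 thus lay with the LPfl/+ and LP245/+ livers, and the log2 fold changes were -0.63 (SE 0.25) in LP245/+ and -0.64 (SE 0.28) in LPfl/+, both against the same controls. The uptake carrier Slco1a1 had the largest log2 fold change of the list in LP245/+ against LP+/+, 0.84 (SE 0.45), with 628, 153 and 283 CPM in LP+/+, 708 and 606 in the LPfl/+ livers and 471, 490 and 944 in LP245/+.

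In LP245/+ against LPfl/+, where series and genotype cannot be told apart, 3 abundant genes had slightly higher values at an unadjusted p below 0.05. Hnf4a, a nuclear receptor needed for hepatocyte identity and for Cyp7a1 and Cyp8b1 expression, had 539.5 and 546 CPM in LPfl/+ and 752, 648 and 733 in LP245/+, a log2 fold change of 0.39 (SE 0.14, edgeR adjusted p = 0.509), with 557 to 722 in LP+/+. Rxra, the dimer partner of FXR, had 371 and 341 CPM in LPfl/+ and 425, 485 and 415 in LP245/+, a log2 fold change of 0.31 (SE 0.12, adjusted p = 0.538). Abcg8, the partner of Abcg5 in the biliary sterol exporter, gave 0.33 (SE 0.14, adjusted p = 0.571). Hnf4a and Abcg8 were also lower in all livers of the second series than in all of the first. Of 6 pericentral hepatocyte markers, 2 had higher values at an unadjusted p below 0.05 in this comparison and 4 did not overlap, all higher. Of all genes, 8.51% had such a p in either direction and 12.1% were higher without overlap. Summed, the 6 markers were 6020 to 6813 TPM in LPfl/+, 7436 to 9211 in LP245/+ and 6301 to 9254 in LP+/+. The lowest LP+/+ sum was that of replicate 1, of the second series. Most of each sum was Cyp2e1, with means of 5114 TPM in LPfl/+ and 6653 in LP245/+. Cyp2e1 and Oat were lower in all livers of the second series than in all of the first. The part of the pericentral markers in the values above was not tested. In Hnf4a, Rxra and Abcg8 the LP+/+ livers reached into the range of at least 1 other genotype.

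At the edge of detection, Slc51b (OST-beta), a basolateral exporter that FXR is known to induce, had 45 and 14 counts in LPfl/+ replicates 1 and 2. It had 6 to 14 counts in LP245/+ and 11, 24 and 15 in LP+/+ replicates 1, 2 and 3, so LPfl/+ replicate 1 alone stood above the other livers. The log2 fold change was -1.63 (SE 0.58, edgeR adjusted p = 0.497) in LP245/+ against LPfl/+. Cyp2b10, the classical target of the receptor CAR, had 0, 22 and 44 counts in LP+/+ replicates 1, 2 and 3, 0 and 3 in LPfl/+ and 12, 31 and 12 in LP245/+. Both LPfl/+ livers were at or under the floor of 3 counts, and so was LP+/+ replicate 1, the remaining liver of the second series. Its fitted fold changes, the largest of the list in LPfl/+ against LP+/+ and in LP245/+ against LPfl/+, depend on the prior count and are not given. Fgf15, the ileal hormone that lowers Cyp7a1, was at 0 counts in all 8 livers. Hsd3b7, the enzyme after Cyp7a1, was also listed at 0 in every liver, and 62.0% of its exon bases are shared with Gm49388 on the same strand, so that its level is uncertain.

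**Figure D5:**
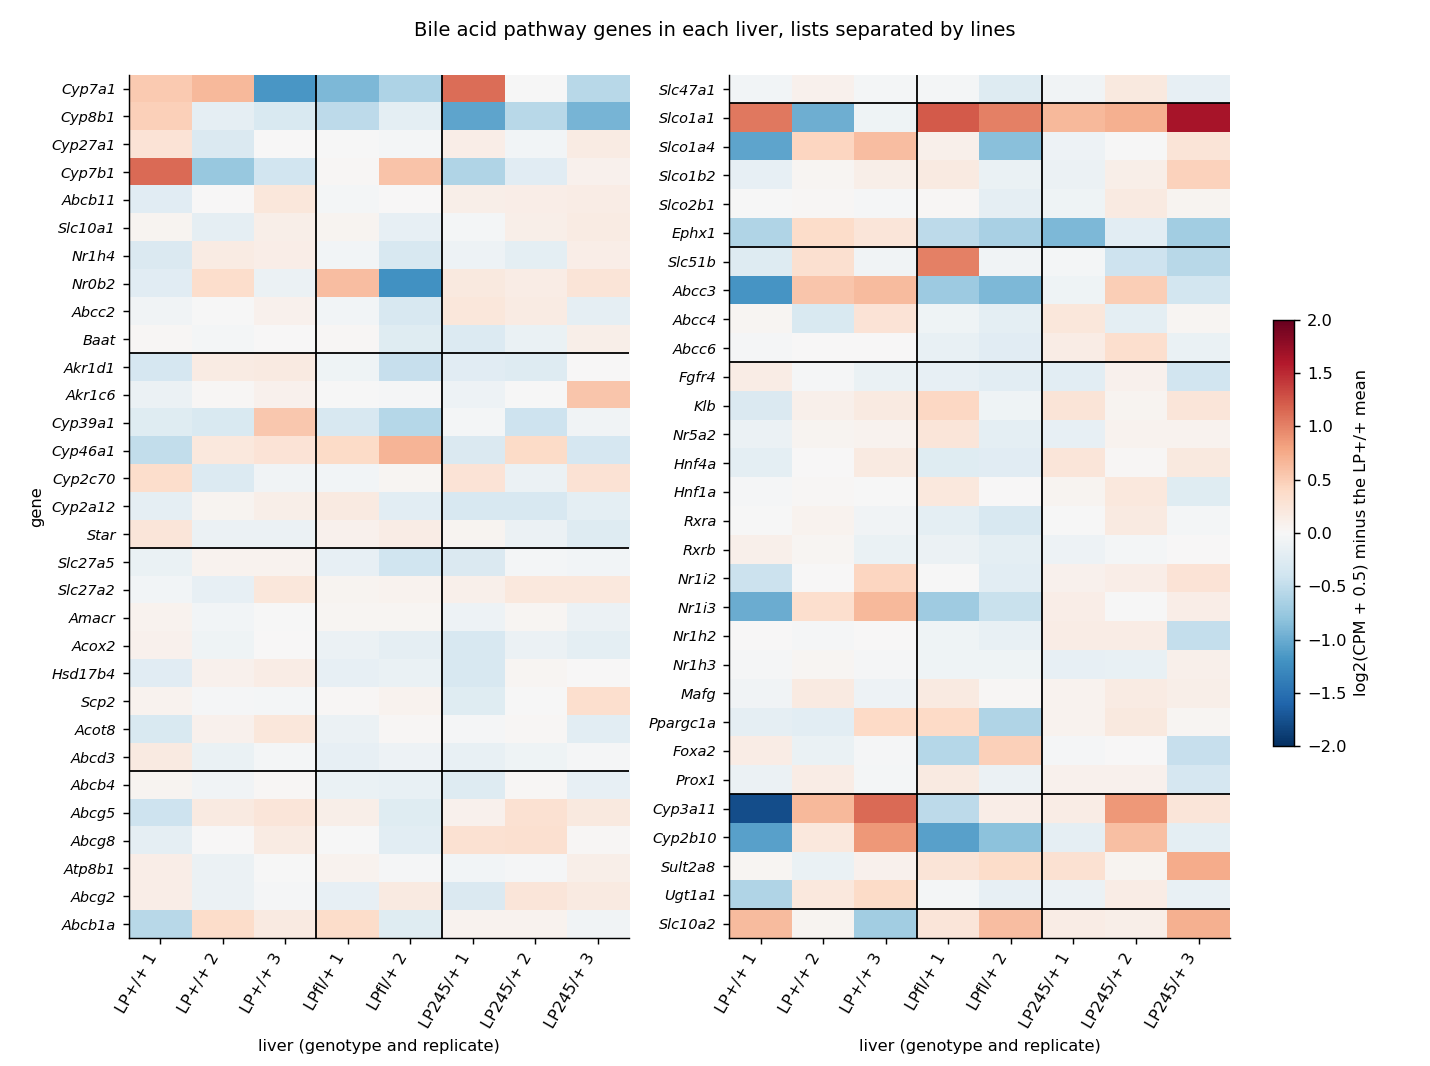
Heat map of the 10 genes and the tested genes of the wider bile acid lists (rows, lists separated by lines) in each liver (columns). Colour is log2(CPM + 0.5) minus the mean of the LP+/+ livers, from -2 (blue) to 2 (red). Most rows are pale, and the strong colours within LP+/+ replicate 1, such as Cyp7b1 high and Cyp3a11 low, set that control apart from the other two.

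For each of the 10 genes the 2 genes with the most alike pattern over the 8 livers were taken by Pearson's r of log2 CPM among all genes tested, as a description over livers that share genotype and series. One of those taken for Cyp8b1 was Vps53 (r = 0.97, rho = 1). Cyp27a1 was most like the pseudogene Gm9403 and Cyp2c70 (r = 0.94), a P450 that makes muricholic acids in mice. Cyp7a1 was most like Gm22362 and Six5, Cyp7b1 like Ugt2b37 and Skil, Nr0b2 like Gm43314 and Cpne3, and Nr1h4 like March2 and Echdc3. Abcb11 was most like Ppfibp1 and Zc3h11a, Slc10a1 like Gm43164 and Gm13267, Abcc2 like Ier5l and Hipk1, and Baat like Ociad1 and Aven. All of these r were between 0.92 and 0.99, and none of the 10 genes was among the 2 most alike genes of another. Gm22362, Gm9403, Ugt2b37, Gm43164, Gm13267 and Ier5l had low levels, with means of 0.302 to 0.908 CPM. As the highest r of all genes tested over only 8 livers, these values are not evidence of a link.

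Trp53, the modified gene, had 7.95, 9.06 and 7.11 CPM in LP+/+, 4.48 and 6.28 in the LPfl/+ livers and 11.2, 10.5 and 6.80 in LP245/+, so both LPfl/+ livers were below the other 6. Cdkn1a (p21), a p53 target, was the 1 gene past the cutoff in LP245/+ against LP+/+ (log2 fold change -2.91, edgeR adjusted p = 0.0155). The livers expressed hepatocyte markers at a summed 112546 to 148922 TPM in LP+/+, 111528 to 114551 in LPfl/+ and 110329 to 125615 in LP245/+. Beside Cyp8b1, 0 of 6 hepatocyte, 0 of 6 pericentral, 0 of 5 periportal, 0 of 7 tested cholangiocyte, 0 of 7 macrophage, 0 of 5 endothelial, 0 of 6 stellate and 0 of 5 tested lymphocyte markers had an unadjusted p below 0.05 in LP245/+ against LP+/+ by edgeR. Of 4 erythroid markers 1 had, with lower values in LP245/+, and they summed to 1150.3 to 1705 TPM in LP+/+, 789 to 1097 in LPfl/+ and 685 to 1341 in LP245/+. Of the 9 cholangiocyte markers, which summed to 43.6 to 50.7 TPM in LP+/+, 42.5 to 60.1 in LPfl/+ and 35.0 to 44.7 in LP245/+, Sctr was at or under 3 counts in every liver. Most of each of these sums was Spp1, with means of 36.2 TPM in LP+/+, 40.5 in LPfl/+ and 30.8 in LP245/+. Summed macrophage markers were 314 to 359 TPM in LP+/+, 321 to 425 in LPfl/+ and 265 to 317 in LP245/+. In LPfl/+ against LP+/+ 2 pericentral, 1 periportal and 2 erythroid markers had lower values at such a p, and 0 of the other lists did. In LP245/+ against LPfl/+ 2 pericentral and 1 stellate marker had higher and 2 macrophage and 1 cholangiocyte marker lower values. Of all genes, 5.93% had such a p in either direction in LP245/+ against LP+/+. The share was 6.89% in LPfl/+ against LP+/+ and 8.51% in LP245/+ against LPfl/+. The part of cell composition in the values above was not tested.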

How the data were processed

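The authors extracted RNA from flash-frozen liver with TRIzol, made stranded total RNA libraries and aligned the reads to GRCm38 with STAR. The deposited values are raw read counts for 49585 genes. The annotation release and the strand counted are not given in the sources used here. All 8 columns matched a label, and 0 were left unmatched. Symbols, exon lengths and positions came from GENCODE M21, which left 259 genes without a symbol, and promoters from RefSeq.

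The members and gene lists, the clock and marker lists included, were chosen with earlier results of these data known. Counts were fitted in edgeR 4.0.16 (R 4.3.3) with TMM factors, filterByExpr by genotype and all 8 livers together, and p-values were adjusted by Benjamini-Hochberg over 16496 genes. P-values measure the spread between livers. DESeq2 1.42.0, other scalings and filters, the 2 genotypes alone, replicate and series terms and leaving out each liver were tried. On simulated counts edgeR recovered 200 of 200 changed genes in LP245/+ against LP+/+ with 5 false calls, among 16298 genes. The changed genes were shifted by more than the 2-fold cutoff, and every gene was given the same relative spread between livers. How often edgeR would find differences of the size and spread seen in the 10 members was not tested. Permutation tests on pairs of genes used all 40320 orders, or 720 within series for an alternative added after seeing the data. A count of 3 was the detection floor, which covers counting error only. No liver was left out of the reported analysis, and no 2 libraries were near-identical. The genes named were the 10 members, genes of the wider lists with an unadjusted p below 0.05 or the largest fold change of a comparison, 4 clock genes, Trp53, Cdkn1a and the 2 most alike genes per member, of which 1 is not reported here.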

Additional observations from a re-analysis of the deposited data

How the results depend on the processing

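Of the 10 genes, 0 passed the cutoff in any comparison of 2 genotypes under any alternative run, including each liver left out in turn. In the test for any genotype, 1 passed with DESeq2 and 1 without the filter on low counts, Cyp8b1 in both. Over 240 log2 fold changes recomputed under alternatives, 221 kept their direction and their side of an adjusted p of 0.05, 2 (Cyp8b1 in LP245/+ against LP+/+) came below that p with a fold change still short of the cutoff, and 17 changed sign. With 1 liver left out, 220 of 240 kept both and 20 changed sign. The cause of the sign changes was not tested.

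Over all genes, 1 passed in LP245/+ against LP+/+, and 10 did with DESeq2, 20 without the filter and 3 with the series covariate. In LPfl/+ against LP+/+ the count of 0 became 9, 14 and 3 under the same settings. In LP245/+ against LPfl/+ the count of 0 became 54, 122 and 10, and 51 with only the 2 genotypes fitted. For any genotype the count of 0 became 75, 152 and 8. With 1 liver left out the counts ran from 0 to 5 in LP245/+ against LP+/+, 0 to 59 in LPfl/+ against LP+/+, 0 to 47 in LP245/+ against LPfl/+ and 0 to 73 for any genotype, and the highest of each of the last 3 came without LP+/+ replicate 1.

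With the series as a covariate, Cyp7b1 turned to 0.33 in LP245/+ against LP+/+. In LPfl/+ against LP+/+ Cyp7b1 turned to -0.81, Abcb11 to 0.22, Nr1h4 to 0.10 and Nr0b2 to 0.21. In LP245/+ against LPfl/+ Cyp8b1 turned to 0.24, Cyp7b1 to 1.14, Abcb11 to -0.20, Nr1h4 to -0.29 and Nr0b2 to -0.14. Scaled by library totals, LPfl/+ against LP+/+ gave 0.011 for Cyp27a1, 0.041 for Abcb11, 0.0051 for Slc10a1 and 0.0021 for Nr0b2, and LP245/+ against LPfl/+ gave -0.052 for Baat. On deviations from the genotype means, the r of Nr0b2 with Cyp7a1 turned to -0.024.

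With 1 liver left out, LP245/+ against LP+/+ ran from -0.46 to 0.45 for Cyp7a1, -0.069 to 0.22 for Cyp27a1, -0.79 to 0.34 for Cyp7b1, -0.016 to 0.13 for Slc10a1, -0.18 to 0.013 for Nr1h4 and -0.0046 to 0.18 for Abcc2. LPfl/+ against LP+/+ ran from -0.19 to 0.10 for Cyp27a1, -0.25 to 0.88 for Cyp7b1, -0.13 to 0.080 for Abcb11, -0.18 to 0.039 for Slc10a1, -1.27 to 0.59 for Nr0b2 and -0.25 to 0.0028 for Baat. LP245/+ against LPfl/+ ran from -0.42 to 1.44 for Nr0b2 and -0.097 to 0.16 for Baat.

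The groups share replicate numbers, but livers with the same number did not deviate together (correlations of -0.08 to 0.02), so the numbers do not pair them. With the replicate block, 0 genes passed in LP245/+ against LP+/+, Abcb11 turned to 0.043 in LPfl/+ against LP+/+ and Baat to -0.037 in LP245/+ against LPfl/+, and Cyp8b1 was -0.86 in LP245/+ against LP+/+.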

Other observations

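LP+/+ replicate 1 stood apart from the other controls in several genes of bile acid and drug clearance that were named here after their values were seen. Cyp3a11, a P450 that hydroxylates bile acids, had 240 CPM in LP+/+ replicate 1 and 1290 and 1808 in replicates 2 and 3, with 571 and 903 in LPfl/+ and 916 to 1508 in LP245/+. Abcc3 (MRP3), a basolateral exporter, had 79.0 CPM in LP+/+ replicate 1, 265 and 279 in replicates 2 and 3, 109 and 96.1 in LPfl/+ and 140 to 255 in LP245/+. Nr1i3, encoding the receptor CAR that induces such genes, had 9.95 CPM in LP+/+ replicate 1, 25.7 and 32.1 in replicates 2 and 3, 12.2 and 14.8 in LPfl/+ and 20.1 to 22.3 in LP245/+, and 74.9% of its exon bases lie opposite Tomm40l. In Cyp3a11, Abcc3 and Nr1i3 the 3 livers of the second series of library numbers were lower than all 5 of the first, as in 4.54% of all genes tested, and 5.08% were higher in that way. The first principal component of log2 CPM was -48.0 to -31.7 in the second series and 17.1 to 32.8 in the first. Slc10a2 (ASBT), the ileal bile acid carrier that bile duct cells also use, had 27.6 to 74.0 CPM over the 8 livers with all genotypes overlapping. Which liver cells this RNA came from was not tested.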
